A study of Caenorhabditis elegans with 21 samples.

Results

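The comparison set whole Caenorhabditis elegans given RNA interference (RNAi) against rpn-6 beside whole animals starved for 15 h, in 6 of the series' 21 RNA-seq libraries. All animals were wild-type N2 grown at 20 °C on Escherichia coli OP50 and collected as day 1 adults, in 7 groups of 3 libraries. The rpn-6 RNAi animals (replicates 4, 5 and 6) were moved to RNAi plates at the L3 larval stage. The starved animals (replicates 1, 2 and 3) were moved to plates without food 15 h before collection, and the untreated controls (replicates 4, 6 and 7) served for orientation. All 7 groups entered 1 fit and shared its estimate of the spread, but the controls were not part of the difference tested. The labels name no empty-vector RNAi group, so the rpn-6 RNAi and starved animals differed in the plate, in the food and in the time since transfer as well as in the gene targeted. They do not say whether the 3 libraries of a group came from separate cultures, and p-values then measure the spread between these libraries, which may be technical. Of 46254 gene IDs in the expression table, 17492 had at least 1 FPKM (fragments per kilobase of transcript normalised to the mapped fragments of the library) in at least 3 of the 21 libraries and were tested.

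The proteasome degrades proteins tagged with ubiquitin. It consists of a core particle of alpha (pas) and beta (pbs) subunits and a regulatory particle of ATPase (rpt) and non-ATPase (rpn) subunits, and rpn-6 encodes a regulatory subunit that helps to hold the particles together. In C. elegans an impaired proteasome is known to be answered through the transcription factor SKN-1A, which raises proteasome subunit genes, and through heat shock genes and the pals group of intracellular pathogen response genes. Fasting is known to raise lysosomal lipases and fat-oxidation genes, partly through the transcription factors HLH-30 and NHR-49, and to halt egg production.

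The targeted gene came first as a check of the labels. The annotation holds rpn-6.1, the widely expressed proteasome subunit, and rpn-6.2, a paralog. rpn-6.1 had 115, 121.7 and 127 FPKM in rpn-6 RNAi libraries, against 112, 122.1 and 121 FPKM in starvation libraries and 168, 168 and 130.2 FPKM in controls. The ranges of the rpn-6 RNAi and starvation libraries overlapped, and the log2 difference was 0.03 ± 0.14 (limma, adjusted p = 0.85). rpn-6.2 had 30.9, 26.9 and 31.1 FPKM in rpn-6 RNAi libraries and 52.9, 49.6 and 24.1 FPKM in starvation libraries, a log2 difference of −0.42 ± 0.24 (limma, adjusted p = 0.15), and without starvation replicate 3 it was lower in rpn-6 RNAi at −0.77 (adjusted p = 0.0033). Its controls had 21.9, 24.1 and 30.6 FPKM, so the rpn-6 RNAi mean lay above the control mean, by 0.22 on the log2 scale. All rpn-6 RNAi and starvation libraries lay below the controls for rpn-6.1, so its level did not set the rpn-6 RNAi libraries apart from the starved ones, and the groups are named here by their labels.

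FPKM sums of the 6 libraries lay between 947321 and 1036350, and steps in the low values put their relative depth at 1.05 to 1.50 times that of control replicate 4; absolute depth is not given in the sources used here. The rpn-6 RNAi libraries were alike, each with a mean Pearson correlation of 0.974 to 0.979 with its own group on log2(FPKM + 1). The starvation libraries were less so, at 0.919 for replicate 1, 0.899 for replicate 2 and 0.843 for replicate 3, so values without replicate 3 are given beside the results that it moved most. Replicate 3 stood apart in some cuticle genes (rol-6 had 489 FPKM, against 28.4 and 87.7 FPKM in the other starvation libraries) and in low sperm and egg genes, described with those groups. Markers of muscle, pharynx, neurons, intestine, hypodermis, germline, oocytes and sperm were detected in the 6 libraries, except that the germline marker pgl-1 was listed at 0 in rpn-6 RNAi replicate 6, and the embryo markers end-1, end-3, tbx-37 and med-1 lay at or below 1.14 FPKM. Among all tested genes, 60 with a median above 20 FPKM held 154 values of exactly 0, which may be failed estimates. Among them pas-5 was listed at 0 in all 3 rpn-6 RNAi libraries and in control replicate 7, but had 244, 231 and 231 FPKM in the starvation libraries.

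At an adjusted p under 0.05, 8869 of the 17492 tested genes (50.7%) differed between rpn-6 RNAi and starvation, of which 5058 (28.9% of those tested) were higher and 3811 (21.8%) lower in rpn-6 RNAi. At least a 2-fold difference was reached by 1965 of the higher and 1892 of the lower genes, and the median difference over all tested genes was −0.03. Each log2 difference here is rpn-6 RNAi minus starvation on log2(FPKM + 1) with its limma standard error, a scale that understates the change of genes at low FPKM. Without starvation replicate 3, 4950 genes (28.3%) were higher and 4720 (27.0%) lower. In total 7580 genes were called the same way with and without it (85.5% of the calls with it and 78.4% of the calls without it), and 0 were called in opposite directions. The position of the controls is a description and was not tested. Of the 3811 lower genes, 2006 (52.6%) had a control mean below both groups, near the 53.6% of all tested genes, and of the 5058 higher genes 1378 (27.2%) did. In bulk RNA from whole animals, fewer cells of a type and less RNA per cell cannot be told apart.

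**Figure D1:**
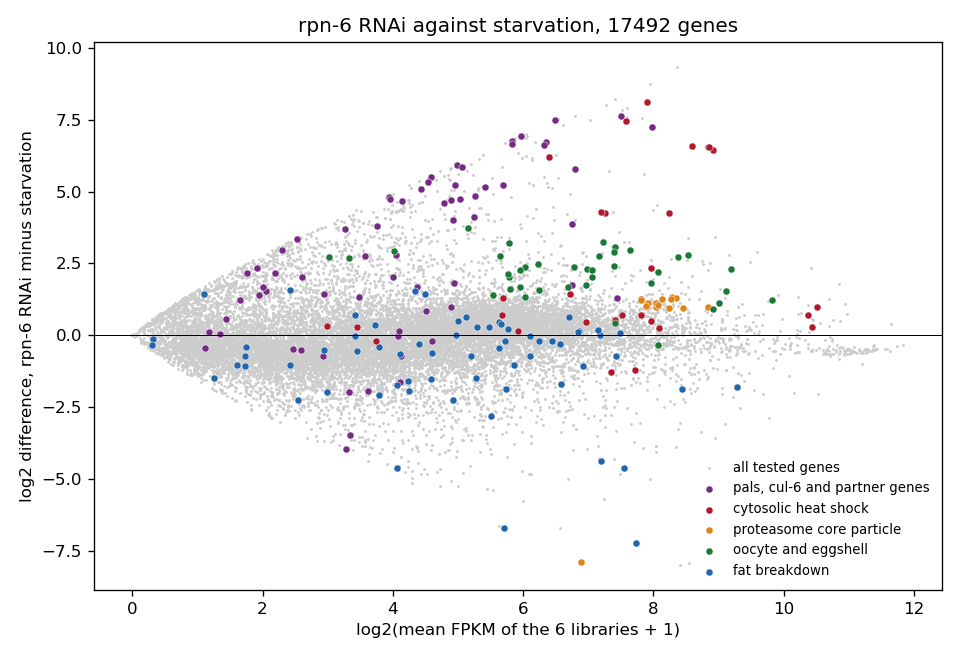
Log2 difference between rpn-6 RNAi and starvation (vertical axis, positive is higher in rpn-6 RNAi) against the log2 of the mean FPKM of the 6 libraries plus 1 (horizontal axis) for the 17492 tested genes, with members of 5 gene lists coloured. Core particle genes sit in a narrow band near 1 apart from pas-5, which is listed at 0 in all rpn-6 RNAi libraries, while small heat shock and pals genes reach beyond 6 and several fat breakdown genes lie below −4.

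Among named genes the 12 largest rises in rpn-6 RNAi included small heat shock genes and pals genes, and the 12 largest falls included genes of lipid, lysosomal and secreted proteins. hsp-16.41, a small heat shock gene, had 465, 449 and 507 FPKM in rpn-6 RNAi libraries, against 0.303, 0.838 and 1.11 FPKM in starvation libraries and 2.83, 2.82 and 4.14 FPKM in controls. Starved animals were below control level and the groups were separated by a wide gap, with a log2 difference of 8.11 ± 0.31 (limma, adjusted p = 3.3e-12). numr-1, a nuclear gene known for its response to metals, had 319.5, 295 and 471 FPKM against 0.691, 0.409 and 0.532 FPKM (log2 difference 7.85 ± 0.32, limma, adjusted p = 7e-12). Its symbol is shared by a second, near-identical gene ID, which differed by 6.099. eol-1, a gene of the decapping enzyme family known from olfactory learning and pathogen responses, had 397, 344 and 335 FPKM against 0.569, 0.874 and 0.974 FPKM. Its log2 difference was 7.64 ± 0.22 (limma, adjusted p = 1.1e-13). pals-10 was listed at 0 in all starvation libraries and all controls and had 180.2, 181 and 169 FPKM in rpn-6 RNAi libraries. The other named genes of the top 12 were hsp-16.2, ddn-1, the SKN-1-dependent zygotic gene sdz-6, the F-box gene fbxa-75, ifas-1, pals-28, pals-14 and pals-29, with log2 differences between 6.66 and 7.46.

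At the opposite end scl-2, which encodes a secreted SCP-like protein, had 1.24, 1.37 and 1.82 FPKM in rpn-6 RNAi libraries, against 465, 493 and 1063 FPKM in starvation libraries and 27.3, 22.7 and 24.3 FPKM in controls. The starved animals were above the controls and the rpn-6 RNAi animals below them, and the log2 difference was −7.99 ± 0.30 (limma, adjusted p = 3.1e-12). acdh-1, an acyl-CoA dehydrogenase of the propionate shunt, had 1.28, 3.13 and 0.883 FPKM in rpn-6 RNAi libraries, against 282, 313 and 669 FPKM in starvation libraries and 866, 963 and 1018 FPKM in controls. Here the starved animals lay nearer the controls than the rpn-6 RNAi animals did (log2 difference −7.23 ± 0.90, limma, adjusted p = 7.5e-06). lipl-3, a lysosomal lipase of the fasting response, was listed at 0 in all 3 rpn-6 RNAi libraries and had 93.1, 116 and 98.7 FPKM in starvation libraries and 0.182, 0.484 and 0.296 FPKM in controls. The other genes among the 12 largest falls were the C-type lectins clec-48, clec-82 and clec-7, the saposin-like genes spp-2 and spp-1, dod-3, cyp-34A9, ttr-44 and the aspartyl protease asp-13, with log2 differences between −5.76 and −4.75. All of these genes were separated between the groups without overlap and called with and without starvation replicate 3, because the rule that chose them required it.

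**Figure D2:**
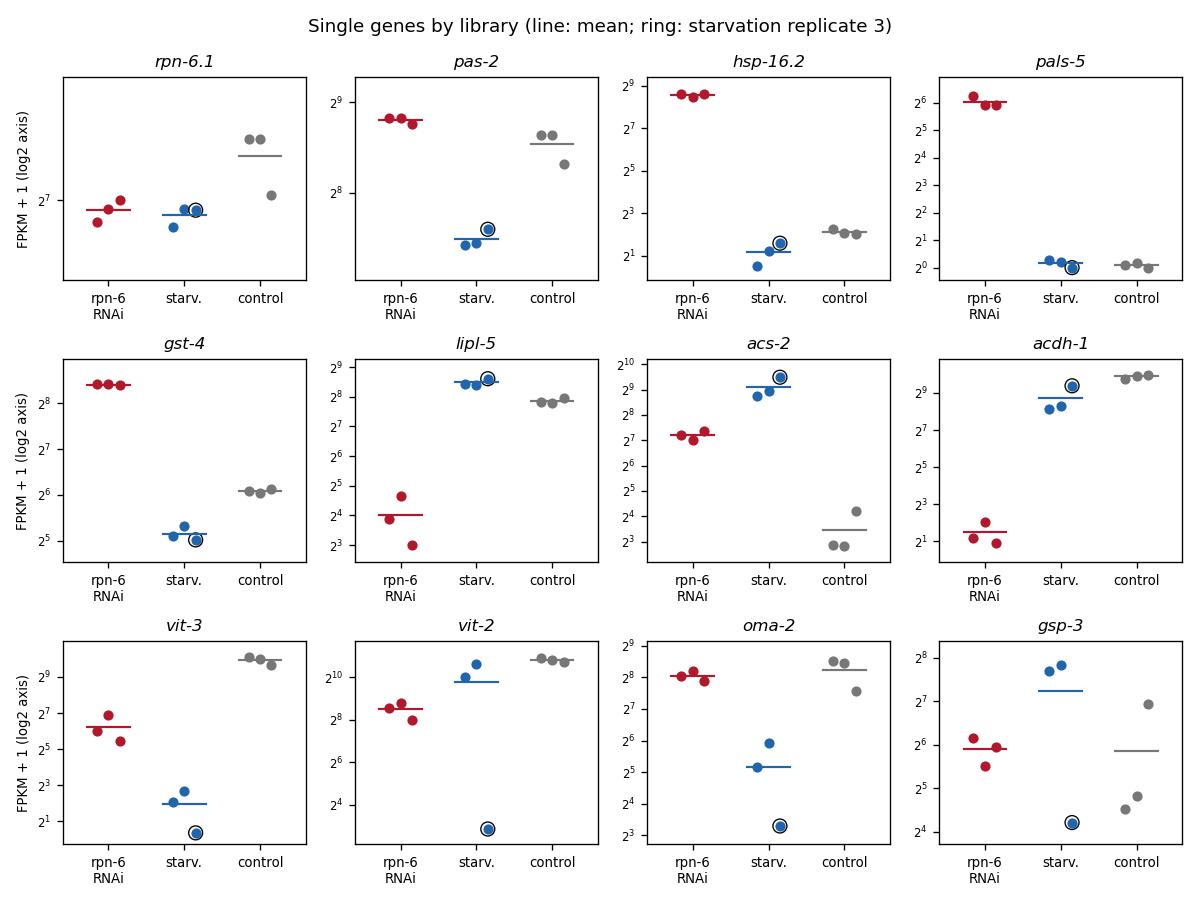
FPKM plus 1 on a log2 axis for 12 genes in each library of rpn-6 RNAi (red, left), starvation (blue, middle) and untreated control (grey, right), with a line at each group's mean and a ring on starvation replicate 3. hsp-16.2, pals-5 and gst-4 stand high in rpn-6 RNAi alone, lipl-5 and acdh-1 stand low there, and rpn-6.1 does not separate rpn-6 RNAi from starvation.

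Proteasome genes were higher in rpn-6 RNAi than in starvation almost without exception. Of 14 core particle genes, 13 were higher, against 28.9% of all tested genes, with a list median of 1.08 on the log2 scale; the remaining gene was pas-5, called lower from its 0 values and not called when any 1 of the 6 libraries was left out. The 13 genes lay between 0.96 and 1.32. pas-2, an alpha subunit, had 452, 453 and 431 FPKM in rpn-6 RNAi libraries, against 170.4, 173 and 192 FPKM in starvation libraries and 397, 398 and 318 FPKM in controls. The controls lay between the groups, nearer the rpn-6 RNAi libraries, and the log2 difference was 1.32 ± 0.12 (limma, adjusted p = 3.3e-07). pbs-5, the beta subunit that bears the chymotrypsin-like site, was chosen for that role after its values were seen. It had 323, 309.5 and 307 FPKM against 146, 149 and 172 FPKM (log2 difference 1.01 ± 0.11, limma, adjusted p = 1.2e-06). Of the 20 regulatory particle genes, 18 were higher and the other 2 were rpn-6.1 and, not called with all libraries, rpn-6.2. The 18 lay between 0.73 and 1.20, with rpn-12 at 1.20 ± 0.09, rpt-4 at 1.20 ± 0.12 and rpn-5 at 1.17 ± 0.13. The difference between rpn-6.1 and these 18 genes was not itself tested. The core and regulatory medians stood 0.42 and 0.43 above the control mean in rpn-6 RNAi animals, and at −0.70 and −0.50 relative to it in starved animals, so both groups contributed to the difference.

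Most genes for proteasome regulators and for ubiquitin conjugation and removal were also higher. Of 22 genes for the processing of SKN-1A and for the unfoldase CDC-48, 19 were higher and 0 lower (median 0.86), or 1 lower without starvation replicate 3. aip-1, which encodes an arsenite-inducible protein that binds the proteasome, had 242, 249.9 and 283 FPKM in rpn-6 RNAi libraries, against 33.4, 38.2 and 33.5 FPKM in starvation libraries and 48.4, 53.7 and 38.9 FPKM in controls, a log2 difference of 2.85 ± 0.12 (limma, adjusted p = 1.2e-11). ddi-1, the protease that cleaves SKN-1A, had 166, 173 and 178 FPKM against 66.8, 73.8 and 69.96 FPKM (log2 difference 1.29 ± 0.17, limma, adjusted p = 1.4e-05). skn-1 itself was higher by 0.72 ± 0.10 (adjusted p = 3.5e-05). png-1, the N-glycanase that edits SKN-1A, gave 0.08 ± 0.09 (limma, adjusted p = 0.46), with overlapping groups. Among 52 ubiquitin conjugation and deubiquitination genes, 37 were higher and 4 lower (median 0.50), and all 9 usp deubiquitinase genes were higher (8 without starvation replicate 3). The ubiquitin-activating enzyme gene uba-1 had 360.3, 351 and 385 FPKM in rpn-6 RNAi libraries, against 129.5, 139.7 and 133 FPKM in starvation libraries, a log2 difference of 1.44 ± 0.13 (limma, adjusted p = 1.3e-07). ubc-12, for NEDD8 conjugation, was higher by 1.50 ± 0.20. The conjugating enzyme gene ubc-8 was lower at −1.64 ± 0.13, and its starvation libraries (103, 109.6 and 117 FPKM) stood above both the rpn-6 RNAi libraries (31.7, 38.6 and 34.01 FPKM) and the controls (14.4, 18.7 and 20.7 FPKM). ubq-2, a fusion of ubiquitin with a ribosomal protein, gave −0.47 ± 0.07 as deposited but 0.02 under quantile normalization, so its direction depended on the scaling.

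Cytosolic heat shock genes were higher in rpn-6 RNAi, led by the small heat shock cluster. Of 30 genes of the list, 23 were higher and 1 lower (median 0.84), and all 6 hsp-16 gene IDs were higher, by 6.45 to 8.11. The hsp-16.1 and hsp-16.48 symbols each cover a pair of near-identical genes, between which the counting could split reads. hsp-70, an inducible HSP70 gene, had 155, 149 and 190.2 FPKM in rpn-6 RNAi libraries, against 1.41, 1.01 and 1.34 FPKM in starvation libraries and 1.44, 3.58 and 5.504 FPKM in controls, a log2 difference of 6.196 ± 0.35 (limma, adjusted p = 5.1e-10). hsf-1, the heat shock transcription factor, was higher by 0.71 ± 0.17 (adjusted p = 0.0027). The constitutive HSP70 gene hsp-1 was higher by 0.97 ± 0.11. The small heat shock gene hsp-12.2 was the called exception at −1.21 ± 0.16, while hsp-110 was listed at 0 in 1 rpn-6 RNAi library and was not called. Of the 8 chaperonin subunit genes 7 were higher, by 0.38 to 0.83, and the remaining gene, cct-4, was listed at 0 in 2 rpn-6 RNAi libraries and 1 starvation library. In the endoplasmic reticulum list, 7 of 25 genes were higher, near the share of all tested genes, and 1 was lower (5 lower without starvation replicate 2). hsp-4, the BiP chaperone gene, had 347, 369 and 401 FPKM in rpn-6 RNAi libraries, against 267, 202 and 148 FPKM in starvation libraries (log2 difference 0.89 ± 0.17, limma, adjusted p = 0.00046). Mitochondrial chaperones and proteases gave 7 higher and 1 lower of 14, with hsp-60 at 0.88 ± 0.14 and hsp-6 at 0.59 ± 0.10. For hsp-60 the controls (343, 354 and 412 FPKM) stood above both the rpn-6 RNAi libraries (198, 189 and 159.6 FPKM) and the starvation libraries (113, 111 and 74.3 FPKM).

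**Figure D3:**
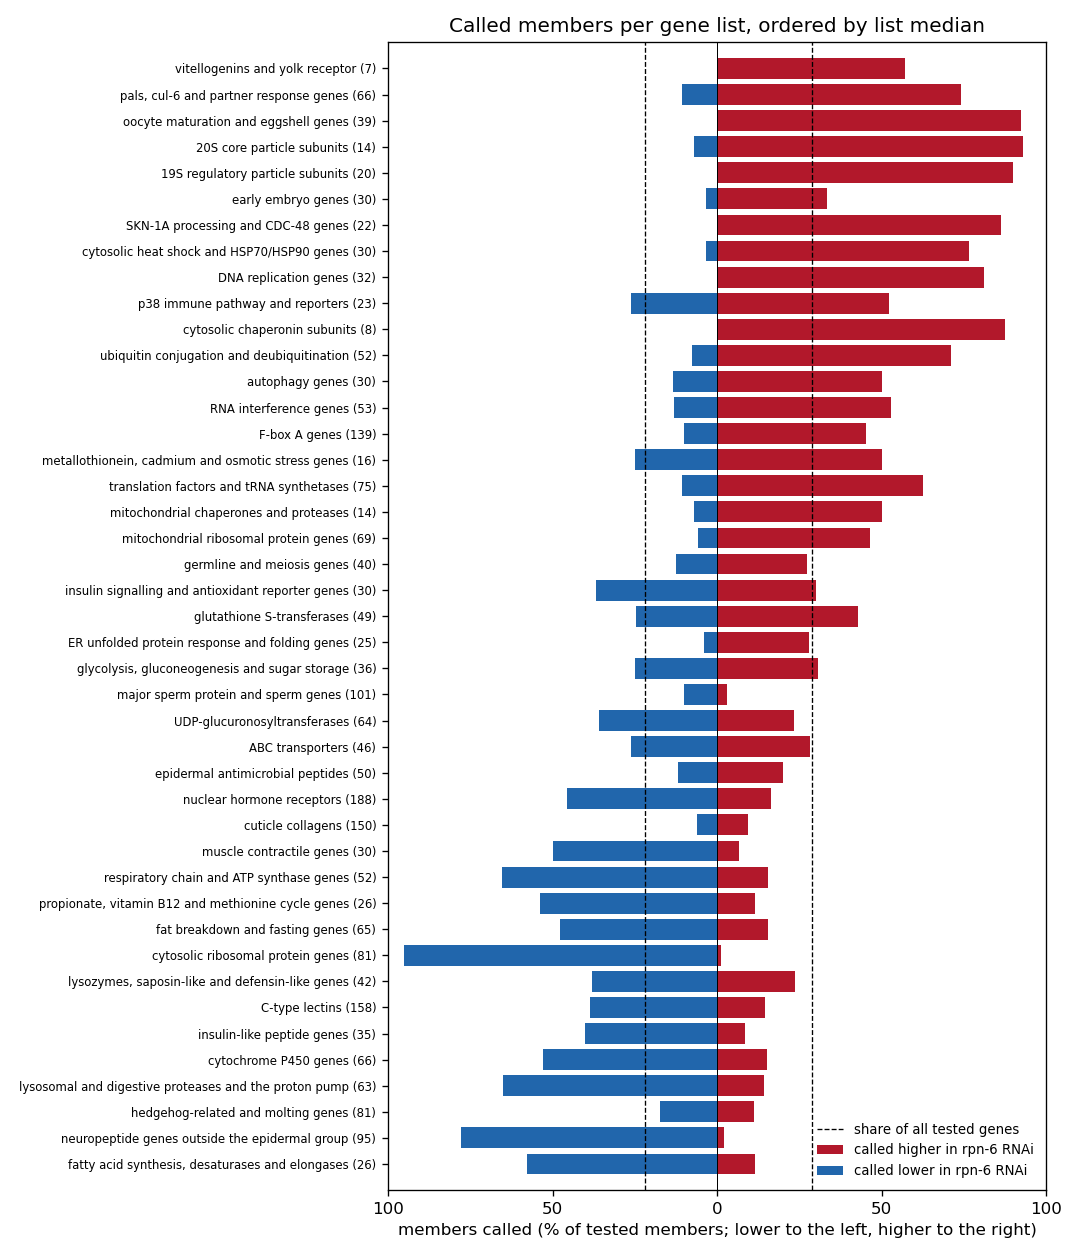
Percent of tested members called higher (red, to the right) and lower (blue, to the left) in rpn-6 RNAi for each of 43 gene lists, ordered by the list's median difference, with the number of tested members in brackets and dashed lines at the 28.9% and 21.8% of all tested genes. Proteasome, oocyte, replication and pals lists lie far to the right of the line, and ribosomal protein, neuropeptide, lysosomal and respiratory lists far to the left.

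The pals, cul-6 and partner genes of the intracellular pathogen response gave the largest list median outside the yolk genes. Of 66 tested members, 49 were higher and 7 lower (median 2.54), and of 36 tested pals genes 30 were higher, by 1.33 to 7.47, and 3 lower. pals-5, the common reporter gene of this response, had 74.3, 58.8 and 60.02 FPKM in rpn-6 RNAi libraries, against 0.200, 0.148 and 0 FPKM in starvation libraries and 0.0775, 0.112 and 0 FPKM in controls (log2 difference 5.87 ± 0.16, limma, adjusted p = 5.4e-14). All starved animals and controls lay at or below 0.200 FPKM. The pals-22 and pals-25 genes, an antagonistic pair that controls the response, and the cullin gene cul-6 were looked up for their roles after their values were seen. pals-22 was higher by 2.01 ± 0.19, pals-25 by 1.33 ± 0.20 and cul-6 by 2.78 ± 0.20. The Skp1-related genes skr-3 and skr-4 were higher by 1.28 ± 0.21 and 1.77 ± 0.26, and skr-5 missed the threshold at 0.85 ± 0.36 (limma, adjusted p = 0.056) but was called without starvation replicate 3, at 1.14. Chitinase-like chil genes divided, with 11 of 21 higher and 4 lower, against 28.9% and 21.8% of all tested genes. chil-23 had 0.172, 0.232 and 0.0739 FPKM in rpn-6 RNAi libraries, against 14.3, 15.2 and 22.5 FPKM in starvation libraries and 1.302, 0.861 and 1.96 FPKM in controls, a log2 difference of −3.96 ± 0.34 (limma, adjusted p = 9.2e-08). Among the F-box A genes, some of which are known members of the response, 63 of 139 were higher and 14 lower, or 22 lower without starvation replicate 3. fbxa-163 had 75.9, 81.8 and 81.3 FPKM against 0.886, 0.918 and 2.24 FPKM, and fbxa-24 ran the other way with 8.19, 10.3 and 13.4 FPKM against 35.3, 45.9 and 45.9 FPKM. Because the rpn-6 RNAi animals were the only ones fed double-stranded RNA in this comparison, the RNA interference genes were also counted. Of 53, 28 were higher and 7 lower (median 0.45). The RNA-dependent RNA polymerase gene rrf-2 was higher by 1.82 ± 0.15 and the Argonaute gene rde-1 by 1.01 ± 0.10, while the Argonaute gene ppw-2 was lower at −1.21 ± 0.14.

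Detoxification genes divided by family. Of 49 glutathione S-transferase genes, which conjugate electrophiles, 21 were higher and 12 lower (median 0.12, or 0.40 without starvation replicate 3). These were 42.9% and 24.5%, against 28.9% and 21.8% of all tested genes. gst-4, a widely used SKN-1 reporter, had 339.6, 340.3 and 336 FPKM in rpn-6 RNAi libraries, against 33.4, 39.1 and 31.4 FPKM in starvation libraries and 66.4, 65.2 and 69.3 FPKM in controls (log2 difference 3.26 ± 0.16, limma, adjusted p = 8.8e-11). Starved animals lay below the controls and rpn-6 RNAi animals above them. gst-24 had 432, 437 and 489 FPKM against 5.503, 7.12 and 14.6 FPKM, a log2 difference of 5.60 ± 0.26. Cytochrome P450 genes went the other way, with 10 of 66 higher and 35 lower (median −0.68, or −0.44 without starvation replicate 3). cyp-35A2, a fat- and xenobiotic-linked member, had 0.732, 2.14 and 1.29 FPKM in rpn-6 RNAi libraries, against 25.5, 23.8 and 64.8 FPKM in starvation libraries and 94.7, 61.03 and 22.97 FPKM in controls (log2 difference −3.92 ± 0.44, limma, adjusted p = 2.1e-06). UDP-glucuronosyltransferase genes gave 15 higher and 23 lower of 64 (23.4% and 35.9%), against 28.9% and 21.8% of all tested genes. ABC transporter genes gave 13 higher and 12 lower of 46 (28.3% and 26.1%), near those shares. pgp-8, a P-glycoprotein gene, had 47.7, 42.5 and 55.3 FPKM against 0.0823, 0.256 and 0.191 FPKM (log2 difference 5.39 ± 0.16). Among 16 metal and osmotic stress genes 8 were higher and 4 lower, or 2 lower when rpn-6 RNAi replicate 4, rpn-6 RNAi replicate 6 or starvation replicate 3 was left out. cdr-4, a cadmium-responsive gene, had 475, 463 and 589 FPKM against 24.3, 18.4 and 19.8 FPKM, and the metallothionein gene mtl-2 had 34.2, 29.2 and 23.8 FPKM against 108, 143 and 198 FPKM, with 204, 199 and 129 FPKM in controls. The metallothionein mtl-1 was lower at −1.36 ± 0.48 with all libraries and was not called without starvation replicate 3 (−0.85, adjusted p = 0.14).

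Fat breakdown genes were lower in rpn-6 RNAi than in starvation. Of 65 tested genes 10 were higher and 31 lower, against 21.8% of all tested genes lower (median −0.52), and 5 of 7 tested lipl lipase genes were lower, including lipl-3 above. lipl-5, a lysosomal lipase, had 13.8, 24.2 and 7.12 FPKM in rpn-6 RNAi libraries, against 340.1, 339 and 389 FPKM in starvation libraries and 226, 219.8 and 247 FPKM in controls. Controls lay near the starved animals, and the log2 difference was −4.62 ± 0.29 (limma, adjusted p = 2.1e-09). lipl-2 had 0.307, 0.296 and 0.298 FPKM against 33.8, 31.98 and 27.3 FPKM, with controls between (10.4, 3.70 and 8.12 FPKM). The peroxisomal acyl-CoA oxidase genes gave 6 lower and 1 higher of 7, with acox-1.1 at −2.24 ± 0.14. acs-2, a mitochondrial acyl-CoA synthetase gene raised by fasting through NHR-49, showed another order of the groups. It had 147, 128 and 162 FPKM in rpn-6 RNAi libraries, against 431, 487 and 718 FPKM in starvation libraries and 6.22, 6.11 and 17.6 FPKM in controls, a log2 difference of −1.87 ± 0.34 (limma, adjusted p = 0.00032). The rpn-6 RNAi libraries thus lay between the controls and the starved animals. The same order held for fmo-2, a flavin monooxygenase gene of the fasting response, with 7.33, 14.1 and 8.59 FPKM in rpn-6 RNAi libraries, 56.2, 128 and 53.2 FPKM in starvation libraries and 0.0954, 0.553 and 0.139 FPKM in controls. icl-1, of the glyoxylate cycle, kept it too, with 292, 241 and 307 FPKM in rpn-6 RNAi libraries, 837, 1065 and 995 FPKM in starvation libraries and 69.6, 66.3 and 119.8 FPKM in controls. Their log2 differences were −2.79 ± 0.51 and −1.78 ± 0.20. The regulator gene hlh-30, the TFEB ortholog, had 43.7, 44.9 and 42.7 FPKM in rpn-6 RNAi libraries, against 136, 140.4 and 160.4 FPKM in starvation libraries and 38.1, 38.6 and 46.6 FPKM in controls. For hlh-30 the rpn-6 RNAi animals overlapped the controls and only the starved animals were high (log2 difference −1.71 ± 0.10, limma, adjusted p = 9.4e-10).

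Fatty acid synthesis genes were also mostly lower. Of 26 genes, 3 were higher and 15 lower (median −1.11). fat-2, a desaturase gene of polyunsaturated fat synthesis, had 205, 239 and 183 FPKM in rpn-6 RNAi libraries, against 1426, 1495 and 1719.7 FPKM in starvation libraries and 479, 511 and 536 FPKM in controls. Starved animals lay above and rpn-6 RNAi animals below the controls (log2 difference −2.89 ± 0.15, limma, adjusted p = 1.4e-10). The desaturase gene fat-3 was lower at −3.24 ± 0.16 and fat-5 at −2.997 ± 0.40. fat-7, a stearoyl-CoA desaturase gene known to fall on fasting, was the exception among the 7 fat genes, with 11.1, 8.01 and 13.1 FPKM in rpn-6 RNAi libraries, against 0.911, 0.723 and 1.23 FPKM in starvation libraries and 58.5, 58.9 and 46.3 FPKM in controls. Both groups lay below the controls, the starved animals further (log2 difference 2.57 ± 0.34, limma, adjusted p = 1.2e-05). Its paralog fat-6, looked up after its values were seen, was lower at −1.65 ± 0.24. mdt-15, a Mediator subunit gene that controls fat synthesis, was likewise looked up and had 53.3, 55.1 and 52.4 FPKM against 103, 103 and 102 FPKM, with 53.6, 53.3 and 54.4 FPKM in controls.

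Among 26 propionate, vitamin B12 and methionine cycle genes, 3 were higher and 14 lower (median −0.42), with acdh-1 above at the head. hphd-1, the hydroxyacid-oxoacid transhydrogenase gene of the same shunt, had 20.4, 22.1 and 18.3 FPKM in rpn-6 RNAi libraries, against 165, 219 and 222 FPKM in starvation libraries and 305, 348 and 433 FPKM in controls (log2 difference −3.25 ± 0.21, limma, adjusted p = 2.8e-09). nhr-68, a receptor gene that drives the shunt, had 1.82, 2.72 and 2.19 FPKM in rpn-6 RNAi libraries, against 38.9, 39.4 and 83.5 FPKM in starvation libraries and 51.9, 49.6 and 57.8 FPKM in controls (log2 difference −3.998 ± 0.42, limma, adjusted p = 1.1e-06). In these 3 genes the rpn-6 RNAi libraries stood below both starved animals and controls. They are known to respond to dietary vitamin B12, and the food of the groups differed, so treatment and diet cannot be told apart. sams-1, for S-adenosylmethionine synthesis, was looked up after its values were seen and was lower at −1.97 ± 0.31. cth-1, a cystathionine gamma-lyase gene, was lower at −2.92 ± 0.36, and cbs-1, for the preceding step, was higher by 1.19 ± 0.19. Of 36 glycolysis, gluconeogenesis and sugar storage genes, 11 were higher and 9 lower, near the shares of all tested genes. The hexokinase gene hxk-1 was higher by 1.41 ± 0.29, the glycogen phosphorylase gene pygl-1 by 0.91 ± 0.25, and the pyruvate kinase gene pyk-2 lower at −1.71 ± 0.18. pck-1, of gluconeogenesis, was higher by 0.63 ± 0.21 although starvation replicate 3, at 119.5 FPKM, overlapped the rpn-6 RNAi libraries (143, 151 and 115 FPKM), and its call was lost when rpn-6 RNAi replicate 4 or 5 or starvation replicate 1 or 2 was left out.

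**Figure D4:**
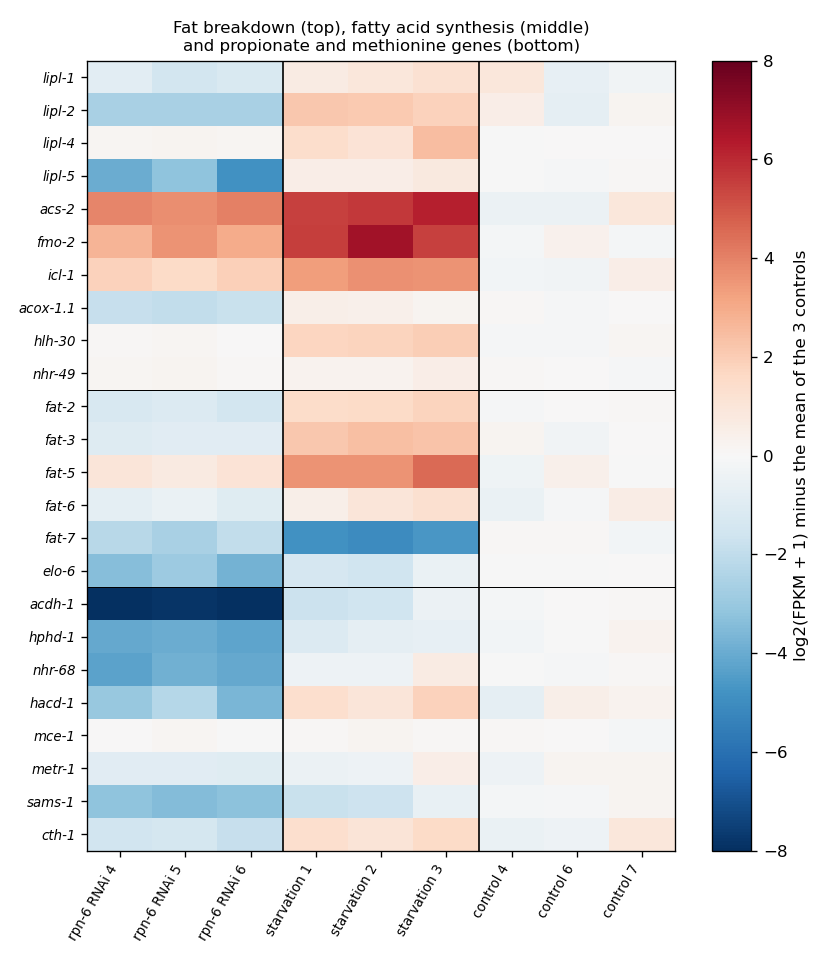
Colour shows log2(FPKM + 1) minus the mean of the 3 controls for 24 genes (rows) in the rpn-6 RNAi, starvation and control libraries (columns, in that order), with colours saturated beyond 8 in either direction. acs-2, fmo-2 and icl-1 are raised in both groups and more in starvation, and acdh-1, hphd-1 and nhr-68 are low in rpn-6 RNAi. Both fat-2 and fat-3 lie below the controls in rpn-6 RNAi and above them in starvation.

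Autophagy and lysosomal genes separated. Of 30 autophagy genes, 15 were higher and 4 lower (median 0.48). epg-8, of the autophagy-specific lipid kinase complex, had 165, 178 and 216 FPKM in rpn-6 RNAi libraries, against 45.4, 42.0 and 40.2 FPKM in starvation libraries (log2 difference 2.10 ± 0.17, limma, adjusted p = 4.4e-08), and bec-1 of the same complex was higher by 1.68 ± 0.14. sqst-1, which links ubiquitin-tagged material to the autophagy machinery, had 218, 206 and 259.6 FPKM in rpn-6 RNAi libraries, against 93.7, 95.4 and 129 FPKM in starvation libraries and 16.02, 20.5 and 26.1 FPKM in controls. Both groups lay above the controls (log2 difference 1.11 ± 0.17, limma, adjusted p = 4.9e-05). The LC3 and GABARAP family genes lgg-2 and lgg-1 were lower, at −0.73 ± 0.07 and −0.26 ± 0.08, with starved animals the highest of the groups for both. Of 63 lysosomal and digestive protease and proton pump genes, 9 were higher and 41 lower (median −0.70). cpr-4, a cathepsin B gene, had 97.3, 86.4 and 50.6 FPKM in rpn-6 RNAi libraries, against 973, 788 and 949.8 FPKM in starvation libraries and 129, 265 and 183 FPKM in controls (log2 difference −3.56 ± 0.29, limma, adjusted p = 4.7e-08). Aspartyl protease genes gave 9 lower and 1 higher of 13. The intestinal markers did not move as a group beside these genes. The esterase gene ges-1 had 2.47, 2.12 and 1.50 FPKM in rpn-6 RNAi libraries, against 31.2, 34.2 and 59.3 FPKM in starvation libraries, but ifb-2, elt-2 and act-5 were not called. For act-5 the groups did not overlap, with 347, 263 and 272 FPKM in rpn-6 RNAi libraries and 189, 113 and 154 FPKM in starvation libraries. It was listed at 0 in control replicate 7, a value that entered the shared estimate of the spread.

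Of 30 genes of insulin signalling and its antioxidant reporters, 9 were higher, near the 28.9% of all tested genes. The 11 lower genes were 36.7% of the list, against 21.8% of all tested genes. daf-16, the FOXO transcription factor gene, was lower at −0.39 ± 0.08 (adjusted p = 0.001), with 112, 117 and 113 FPKM in rpn-6 RNAi libraries, 143, 134.3 and 172 FPKM in starvation libraries and 73.3, 74.5 and 67.2 FPKM in controls. The catalase gene ctl-2 was lower at −2.60 ± 0.15 and the kinase gene sgk-1 at −2.23 ± 0.15. dod-23 was higher by 4.27 ± 0.51. Of the secreted immune families, 61 of 158 C-type lectin genes were lower and 23 higher (median −0.61), and of 42 lysozyme, saposin-like and defensin-like genes 16 were lower and 10 higher. spp-1, a saposin-like antibacterial gene, had 18.2, 11.96 and 12.1 FPKM in rpn-6 RNAi libraries, against 419, 552 and 465 FPKM in starvation libraries and 168, 149 and 113 FPKM in controls. spp-23 of the same family ran the other way, with 36.1, 33.5 and 25.1 FPKM against 2.38, 1.64 and 1.24 FPKM and 77.7, 91.0 and 123.03 FPKM in controls. The p38 pathway and its reporters gave 12 higher and 6 lower of 23 (median 0.60). irg-8 had 125.9, 141 and 78.5 FPKM in rpn-6 RNAi libraries, against 7.97, 3.87 and 9.19 FPKM in starvation libraries and 113, 195 and 322 FPKM in controls, so that rpn-6 RNAi animals overlapped the controls and starved animals lay below both. cebp-1, a bZIP transcription factor gene, was above controls in both groups and higher in rpn-6 RNAi by 2.46 ± 0.19. Among 50 epidermal antimicrobial peptide genes 10 were higher and 6 lower (3 lower without rpn-6 RNAi replicate 6), below the shares of all tested genes. cnc-4, a caenacin gene, had 108, 94.6 and 132 FPKM against 32.2, 14.8 and 22.1 FPKM (log2 difference 2.28 ± 0.37).

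Egg-making genes were higher in rpn-6 RNAi than in starvation. Of 39 oocyte maturation and eggshell genes 36 were higher and 0 lower (median 2.29), and without starvation replicate 3 the count was 33 with a median of 1.46. In a fit of the 6 libraries alone it was 23. oma-2, an oocyte maturation gene, had 263, 292 and 235 FPKM in rpn-6 RNAi libraries, against 35.3, 60.3 and 8.84 FPKM in starvation libraries and 362, 352 and 188 FPKM in controls. The rpn-6 RNAi libraries lay within the range of the controls, and starvation replicate 3 was the lowest of all (log2 difference 3.24 ± 0.65, limma, adjusted p = 0.00074; 2.48 without replicate 3). egg-1, an eggshell assembly receptor gene, was higher by 3.07 ± 0.79, or 1.78 without replicate 3. Of 32 DNA replication genes 26 were higher and 0 lower (median 0.79), or 21 higher without starvation replicate 3, with the ribonucleotide reductase gene rnr-2 at 1.92 ± 0.42 and mcm-7, of the replicative helicase, at 1.46 ± 0.37. Germline and meiosis genes as a wider list gave 11 higher and 5 lower of 40, but 7 higher and 9 lower without starvation replicate 3, and 3 lower without rpn-6 RNAi replicate 5. With all libraries the shares were 27.5% and 12.5%, against 28.9% and 21.8% of all tested genes. glh-1, a germ granule helicase gene, was lower at −0.49 ± 0.09. Of 53 listed early embryo genes, 30 were tested, and the rest did not pass the filter on low values. Of the 30, 10 were higher (33.3%, near the 28.9% of all tested genes) and 1 lower. The list median was 0.91, or 0.90 without starvation replicate 3. For 25 of the 30, all rpn-6 RNAi libraries lay above all starvation libraries, against 33.4% of all tested genes. For 1 gene all lay below, against 25.6%.

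The yolk genes did not move together. vit-3, a vitellogenin gene for yolk protein made in the intestine, had 62.5, 119.99 and 43.003 FPKM in rpn-6 RNAi libraries, against 3.12, 5.42 and 0.279 FPKM in starvation libraries and 1110.1, 1024 and 814 FPKM in controls. Both groups lay far below the controls, and the starved animals further, with a log2 difference of 4.43 ± 0.70 (limma, adjusted p = 8.6e-05). vit-4 was higher by 4.003 ± 0.81 and vit-1 by 3.15 ± 0.64. vit-2 had 376, 449 and 250.4 FPKM in rpn-6 RNAi libraries, against 1050.1, 1562 and 6.28 FPKM in starvation libraries and 1939, 1806 and 1687 FPKM in controls. Starvation replicates 1 and 2 stood above all rpn-6 RNAi libraries while replicate 3 stood far below them, so the log2 difference of 0.61 ± 1.32 (limma, adjusted p = 0.71) became −1.88 without replicate 3 (adjusted p = 0.0082). vit-6 had 277, 364 and 159.6 FPKM in rpn-6 RNAi libraries and 571, 801 and 4.28 FPKM in starvation libraries, and its 0.92 ± 1.26 (adjusted p = 0.56) became −1.42 without replicate 3 (adjusted p = 0.039). vit-5 was not called with or without it, at 2.43 ± 1.24 and 0.45. In starvation replicates 1 and 2 vit-2 thus stood high and vit-3 low, whereas in rpn-6 RNAi libraries and controls these genes differed less. The yolk receptor gene rme-2, expressed in oocytes, followed the oocyte list with 251, 256 and 196 FPKM against 53.6, 86.4 and 7.77 FPKM (log2 difference 2.75 ± 0.67, or 1.76 without replicate 3).

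The count of sperm genes called lower depended on starvation replicate 3. Of 101 major sperm protein and sperm genes, 3 were higher and 10 lower with all libraries (median −0.07), but 3 higher and 88 lower without replicate 3 (median −1.22). Leaving out any other of the 6 libraries gave 4 to 7 lower genes. The mean list level relative to controls was 0.45, 0.02 and 0.35 in rpn-6 RNAi libraries, against 1.64, 1.67 and −1.40 in starvation libraries and −0.59, −0.47 and 1.06 in controls. Starvation replicates 1 and 2 were the highest of these and replicate 3 the lowest, and control replicate 7 also stood above the other controls. gsp-3, a sperm phosphatase gene and marker, had 70.1, 45.0 and 61.2 FPKM in rpn-6 RNAi libraries, against 207, 226 and 17.5 FPKM in starvation libraries, and was not called with all libraries but called lower without replicate 3, at −1.88. Near-identical copies make single major sperm protein genes uncertain, and 0 of the 30 tested msp genes were called with all libraries, against 26 lower without replicate 3. The 12 nspb genes of the list, looked up after their values were seen, gave 8 lower with all libraries (median −2.51) and 8 lower without replicate 3 (median −2.85). try-5, a seminal fluid protease gene, was higher in either case, with 19.3, 17.4 and 24.9 FPKM against 0.368, 1.0999 and 1.20 FPKM.

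**Figure D5:**
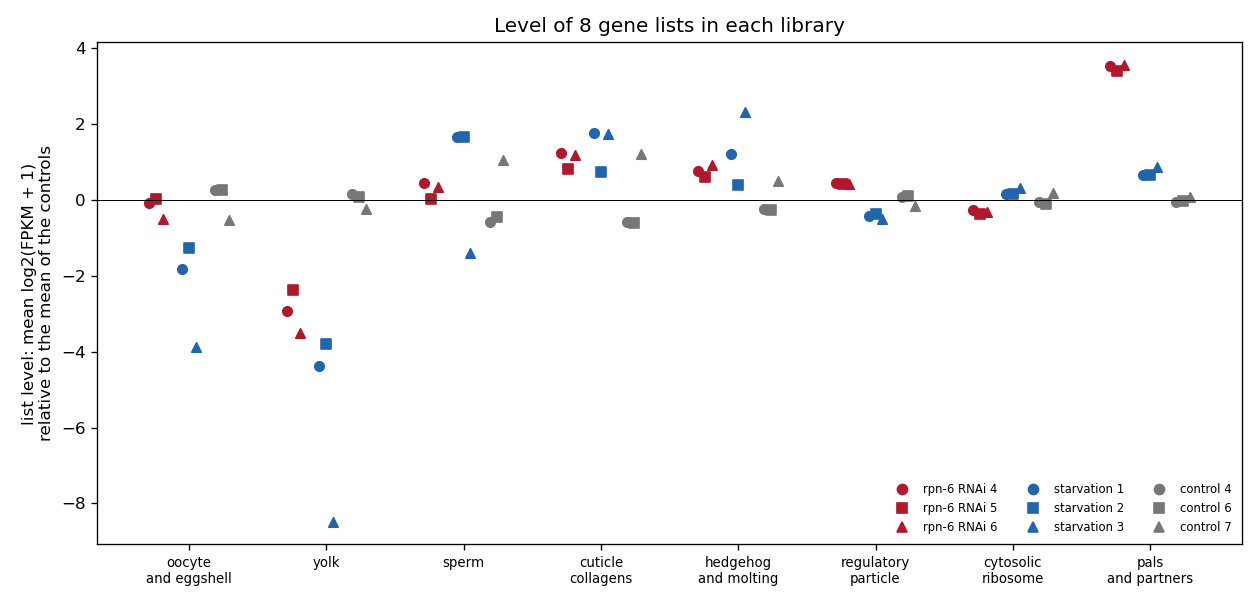
Level of 8 gene lists in each library, as the mean over tested members of log2(FPKM + 1) minus the mean of the 3 controls (vertical axis), for rpn-6 RNAi (red), starvation (blue) and control (grey) libraries with a marker shape for each replicate. Starvation replicate 3 lies apart from replicates 1 and 2 in the oocyte, yolk, sperm and hedgehog lists. The rpn-6 RNAi and starvation libraries do not overlap in the oocyte, yolk, regulatory particle, cytosolic ribosome and pals lists.

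Cytosolic ribosomal protein genes were lower in rpn-6 RNAi by small steps. Of 81 genes 77 were lower and 1 higher (median −0.54), although under quantile normalization the median was −0.09, with 28 lower and 4 higher. rpl-4 had 1605, 1384 and 1489.5 FPKM in rpn-6 RNAi libraries, against 2288, 2315 and 2512 FPKM in starvation libraries and 1739, 1708 and 2286 FPKM in controls. The log2 difference was −0.67 ± 0.10 (limma, adjusted p = 5.6e-05), with controls between or overlapping. Translation factor and tRNA synthetase genes gave 47 higher and 8 lower of 75 (median 0.36), so they ran against the ribosomal proteins. The initiation factor gene eif-3.J was higher by 0.91 ± 0.10 and the synthetase gene hars-1 by 0.83 ± 0.11, while the elongation factor gene eef-2 was lower at −0.55 ± 0.08. Of 69 mitochondrial ribosomal protein genes 32 were higher and 4 lower (median 0.20, or 0.02 under quantile normalization, with 14 higher and 11 lower). Respiratory chain and ATP synthase genes gave 34 lower and 8 higher of 52 (median −0.41), with 5 higher when rpn-6 RNAi replicate 5 was left out.

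Most neuropeptide genes were lower in rpn-6 RNAi than in starvation. Of 95 neuropeptide genes outside the epidermal group 74 were lower and 2 higher (median −0.91). nlp-12, a neuropeptide gene of proprioceptive signalling, had 25.01, 25.4 and 30.8 FPKM in rpn-6 RNAi libraries, against 75.5, 77.8 and 126.3 FPKM in starvation libraries and 9.74, 11.6 and 18.1 FPKM in controls, so both groups were above the controls (log2 difference −1.71 ± 0.25, limma, adjusted p = 3.3e-05). flp-34 was an exception with 83.4, 91.1 and 96.5 FPKM in rpn-6 RNAi libraries, against 10.4, 7.88 and 15.8 FPKM in starvation libraries and 2.71, 2.20 and 3.12 FPKM in controls (log2 difference 2.93 ± 0.29). The general neuron markers did not follow the peptides. rab-3 and unc-10 were not called, and snb-1 and unc-64 were higher by 0.26 and 0.49. Of 35 insulin-like peptide genes 14 were lower and 3 higher (8 lower without rpn-6 RNAi replicate 4), with ins-35 at 0, 0 and 0.307 FPKM in rpn-6 RNAi libraries, against 15.96, 11.7 and 79.3 FPKM in starvation libraries. Muscle contractile genes gave 15 lower and 2 higher of 30 (median −0.40), and all 3 pharynx markers (myo-1, myo-2 and tnc-2) were lower, at −1.21 to −1.32 on the log2 scale. Of the body-wall muscle markers unc-15 was lower at −0.46, and myo-3 (−0.60, adjusted p = 0.089) and unc-54 (−0.25, adjusted p = 0.15) were not called (limma). Of 188 nuclear hormone receptor genes 86 were lower and 31 higher (median −0.40), or 80 lower and 41 higher without starvation replicate 3 (median −0.22). The control mean lay below both groups for 124 of the 188, and for 53.6% of all tested genes.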

How the data were processed

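The deposited values were FPKM per gene and library, made by the authors with CASAVA and Cufflinks per the submitters' processing notes, from Trizol-extracted RNA and stranded poly(A) mRNA libraries per the labels' protocols. The aligner, versions and genome build are not given in the sources used here, and coordinates are left out. The sums of FPKM show the authors' scaling and not read depth, so counting intervals cannot be given. Of 46254 IDs, 43200 matched a symbol in a reference annotation (Ensembl release 115). No column fell outside the series' samples (0).

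Genes that reached 1 FPKM in 3 or more of 21 libraries were fitted on log2(FPKM + 1) with limma 3.58.1 in R 4.3.3, in a single model of 7 groups (14 residual and 2.01 prior degrees of freedom, mean-variance trend, Benjamini-Hochberg adjustment over 17492 genes, called under 0.05). The fit was tested on simulated data. Means and list levels were computed with Python 3.11.15. The members and the 43 lists were chosen with earlier results of these data known. Named were the target genes, the 12 largest differences each way among genes with a symbol of letters and a number (at least 5 FPKM in a group, called with and without starvation replicate 3, no overlap), up to 4 called list members in the commoner and 2 in the other direction, and a set of known reporters. Genes outside this rule, among them hsp-1, skr-3, skr-4, skr-5, acox-1.1, vit-5, pas-5, cct-4, hsp-110 and others in the text and figures, were chosen after their values were seen. Alternatives were the pseudocount, filters, scaling, array weights, the 6 libraries fitted alone, zeros as missing values and each library left out.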

Additional observations from a re-analysis of the deposited data

How the results depend on the processing

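The number of called genes was 7423 to 9670 when 1 of the 6 libraries was left out. Among them 4323 to 4950 were higher and 3100 to 4720 lower in rpn-6 RNAi, and the median difference was −0.032 to 0.013. Fitting the 6 libraries alone gave 7748 called genes, with 4652 higher and 3096 lower. Without 3 libraries chosen after seeing the data (starvation replicate 3, control replicate 7 and fluphenazine replicate 4) the number of called genes was 11868. Each of these was the library least correlated with the others of its own group. Array weights, whose iteration did not fully converge, gave 14985 called genes with 7644 lower; the cause was not tested. A filter of 5 FPKM moved the median difference to 0.034, with fewer genes tested (14088). Median-of-ratios scaling gave 4529 higher and 3961 lower, and quantile normalization 4426 and 4070. With starvation replicate 3 also left out, a choice made after seeing the data, these were 4374 and 4815, and 4534 and 4798.

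Among single genes 227 of 259 named genes were called the same way in all 17 alternative settings. Most of the named genes were chosen for being called with all libraries and without starvation replicate 3, which is itself among these settings. Part of this agreement was therefore fixed by the choice, and it does not measure how stable calls were among all tested genes. The gene ubq-2 (−0.474 with all libraries) changed sign under quantile normalization, at 0.024, and at 0.033 with starvation replicate 3 also left out. The yolk gene vit-2, at 0.611 with all libraries and not called, lay between −1.876 (without starvation replicate 3) and 1.997 (without starvation replicate 2) when 1 of the 6 libraries was left out. It was −1.556 with array weights and −1.876 in the absence of the 3 libraries. With starvation replicate 3 left out it was −1.882 under median-of-ratios scaling and −1.648 under quantile normalization. The yolk gene vit-6, at 0.917 and not called, lay between −1.417 (without starvation replicate 3) and 2.206 (without starvation replicate 2), and was −1.132 with array weights and −1.417 in the absence of the 3 libraries. The cause was not tested.

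Among the genes called higher, 927 to 1703 had a control mean above both groups, with the higher count without control replicate 7. Leaving out control replicate 7 or starvation replicate 3 gave 1251 to 1340 below both, 1276 to 1619 nearer rpn-6 RNAi and 828 to 1172 nearer starvation, and among the genes called lower 346 to 433 above both, 2006 to 2161 below both, 820 to 825 nearer rpn-6 RNAi and 484 to 547 nearer starvation. No paired analysis was possible because the rpn-6 RNAi replicates (4, 5 and 6) and the starvation replicates (1, 2 and 3) share no number. Absolute depth is unknown, so values near 0 FPKM limit what can be said of low genes, and exact 0 values in abundant genes may be failed estimates; treating these as missing gave 8891 called genes.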

Other observations

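A few cuticle genes set starvation replicate 3 apart, whereas the level of the 150 tested cuticle collagens relative to controls did not. It was 1.23, 0.81 and 1.17 in rpn-6 RNAi libraries and 1.75, 0.74 and 1.74 in starvation libraries. The controls were at −0.59, −0.62 and 1.21, with control replicate 7 within the range of the rpn-6 RNAi and starvation libraries. dpy-7, a furrow collagen gene of the cuticle, had 9.74, 8.32 and 12.5 FPKM in rpn-6 RNAi libraries, against 18.1, 6.72 and 223 FPKM in starvation libraries and 1.32, 0.638 and 3.43 FPKM in controls. The adult collagen gene col-19 ran the other way in starvation replicate 3. It had 1532, 1541 and 1413 FPKM in rpn-6 RNAi libraries, against 1647, 1689.6 and 135 FPKM in starvation libraries and 1798, 1908 and 2313 FPKM in controls. dpy-2, dpy-3, dpy-8, dpy-9 and dpy-10, looked up with dpy-7 after their values were seen, had 186, 197, 222, 256 and 186 FPKM in starvation replicate 3. No other starvation or rpn-6 RNAi library exceeded 27.5 FPKM for these 6 genes, and 0 of them were called with or without replicate 3. Of 150 cuticle collagen genes, 14 were higher and 9 lower in rpn-6 RNAi, under the shares of all tested genes, and 2 to 17 were lower when 1 of the 6 libraries was left out (2 without starvation replicate 1, 17 without starvation replicate 2 and 3 to 5 without an rpn-6 RNAi library). Of 81 hedgehog-related and molting genes 9 were higher and 14 lower, or 28 lower without starvation replicate 2. With all libraries the shares were 11.1% and 17.3%, under the 28.9% and 21.8% of all tested genes. wrt-4, a hedgehog-related gene, had 1.59, 1.08 and 0.760 FPKM in rpn-6 RNAi libraries, against 38.7, 10.9 and 128 FPKM in starvation libraries and 1.09, 1.09 and 14.9 FPKM in controls.

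Some of the largest differences belonged to genes without a letters-and-number name, chosen here after their values were seen. A group of genes named after the clone F26F2 was at or below 2.38 FPKM in the starvation and control libraries. F26F2.5 had 888, 549 and 530.5 FPKM in rpn-6 RNAi libraries and was listed at 0 in all starvation libraries. F26F2.4 had 533, 467 and 469.6 FPKM against 0.206, 0 and 0.254 FPKM, F26F2.3 had 406, 285 and 319.5 FPKM against 0.0913, 0.203 and 0.0959 FPKM, and F26F2.1 had 174, 90.9 and 105 FPKM against 0.518, 0.721 and 0.717 FPKM. T05A8.2 had 289.9, 292 and 339.6 FPKM in rpn-6 RNAi libraries, against 0.375, 0.104 and 0.0928 FPKM in starvation libraries. In the other direction T22F3.11 had 1.75, 2.29 and 2.13 FPKM in rpn-6 RNAi libraries, against 769, 869.8 and 582 FPKM in starvation libraries and 0.761, 0.895 and 1.62 FPKM in controls. For T22F3.11 the rpn-6 RNAi libraries thus lay slightly above the controls and the starved animals far above both. C46G7.1 differed from both, at or near 0 in all rpn-6 RNAi libraries, with 100.1, 105 and 86.8 FPKM in starvation libraries and 75.2, 68.1 and 95.8 FPKM in controls. pud-1.1, looked up in the same way, had 27.4, 37.7 and 21.2 FPKM in rpn-6 RNAi libraries, against 529, 623 and 332 FPKM in starvation libraries and 1213, 842 and 521 FPKM in controls (log2 difference −4.05 ± 0.64, limma, adjusted p = 8.3e-05). Overlapping or near-identical gene models at such loci could share reads.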
